A study of Mus musculus with 12 samples.

Results

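The control line of a 3T3-L1 adipogenesis experiment was compared between day 2 of hormonal induction and day 0, before it. 3T3-L1 is a mouse embryonic fibroblast line that is committed to the fat lineage, which the labels list under mesenchymal stem cells. The 6 libraries compared were chosen by their labels and columns, out of 12 in the series. The day 2 group is 3 libraries of cells with a control GFP construct (CTRL-GFP) that had been kept for 2 days in 170 nM insulin, 1 uM dexamethasone and 0.5 mM isobutylmethylxanthine with 10% serum. The day 0 group is 3 libraries of the same construct line after confluence and before the hormones. Both groups grew in DMEM with 10% fetal bovine serum, and both carry the construct. The other 6 libraries, with FHL2-GFP, enter only the last comparison. No uninduced culture of day 2 is among the labels, so time in culture or a batch cannot be told apart from the hormones. The labels do not say that the 3 libraries of a group came from separate cultures, so each p-value measures only the spread between libraries.

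In this system dexamethasone activates the glucocorticoid receptor, isobutylmethylxanthine raises cAMP by blocking phosphodiesterases, and insulin acts through the insulin and IGF1 receptors. Together they induce C/EBPβ and C/EBPδ, which in turn induce PPARγ and C/EBPα, the factors that switch on fat cell genes, while growth-arrested cells re-enter the cell cycle for a short clonal expansion. Lipid accumulates days later, so a culture at day 2 is an early stage and not a mature adipocyte.

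Levels are given in CPM, counts scaled to library size after TMM normalization. Of 13524 genes with enough counts to be tested by edgeR, 3964 (29.3%) were called higher and 4092 (30.3%) lower at day 2 at an adjusted p under 0.05. Together they were 59.6% of the tested genes, and these shares are the background for every list below. The 3 libraries of one day did not overlap those of the other for 70.9% of tested genes, with day 2 above for 33.1% and under for 37.8%. Among the called genes 1912 rose and 3017 fell at least 2-fold. The 12 largest rises among well-counted genes included the acute-phase lipocalin Lcn2, the cortisone-activating enzyme Hsd11b1, the renin gene Ren1 and the lipid droplet genes Plin1 and Cidec. The 12 largest falls included the antiviral genes Rsad2, Ifit1, Ifit2 and Ifit3, the actin-binding protein Nexn and the zinc finger genes Zfp37 and Zfp930.

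The libraries differed between the days beyond single genes. Totals were 15706028, 14898941 and 10047708 counts at day 2 and 20769212, 17079919 and 14686042 counts at day 0. Genes with a count numbered 12689 to 16131 at day 2 and 18445 to 18811 at day 0, and 12689 to 15785 against 17751 to 18021 after all libraries were thinned to the smallest total. The spread between libraries was wider at day 2, with a biological coefficient of variation of 0.405 against 0.126 at day 0. Both were estimated over all tested genes, including those with few or no counts at that day. Day 2 replicate 3 was the shallowest and had the fewest genes. The totals of the days overlapped, whereas the numbers of genes with a count did not (exact permutation test, two-sided, p = 0.1, the smallest that 3 against 3 allows).

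The day change followed the GC content of the transcripts. The fifth of genes lowest in GC content took 9.04%, 8.83% and 8.13% of the counts of tested genes at day 2, against 22.3%, 21.3% and 17.7% at day 0. Day 0 replicate 3 lay closest to day 2. Over 13504 genes, which are no replicates of each other, the log2 fold change had a Spearman rho of 0.640 with GC content. With transcript length its rho was -0.288. In 5 equal classes from low to high GC content the median log2 fold change was -1.74, -0.67, 0.053, 0.59 and 0.79. In the lowest class 58 genes rose and 1989 fell, while in the highest 1605 rose and 99 fell. A second fit therefore added an offset per library that follows GC content, which by construction holds the typical gene of each GC level unchanged. With this GC offset 40.9% of the genes were called. Of these 2946 (21.8%) were higher and 2585 (19.1%) lower, and 4011 genes were called in the same direction in both fits. The direction turned for 341 called genes, and 3704 calls were lost. Under this offset the log2 fold change still had a rho of -0.196 with transcript length. Whether the trend arose in the cells or in the making of the libraries was not tested, so changes of named genes are also given under the GC offset, except where a group had few or no counts.

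**Figure D1:**
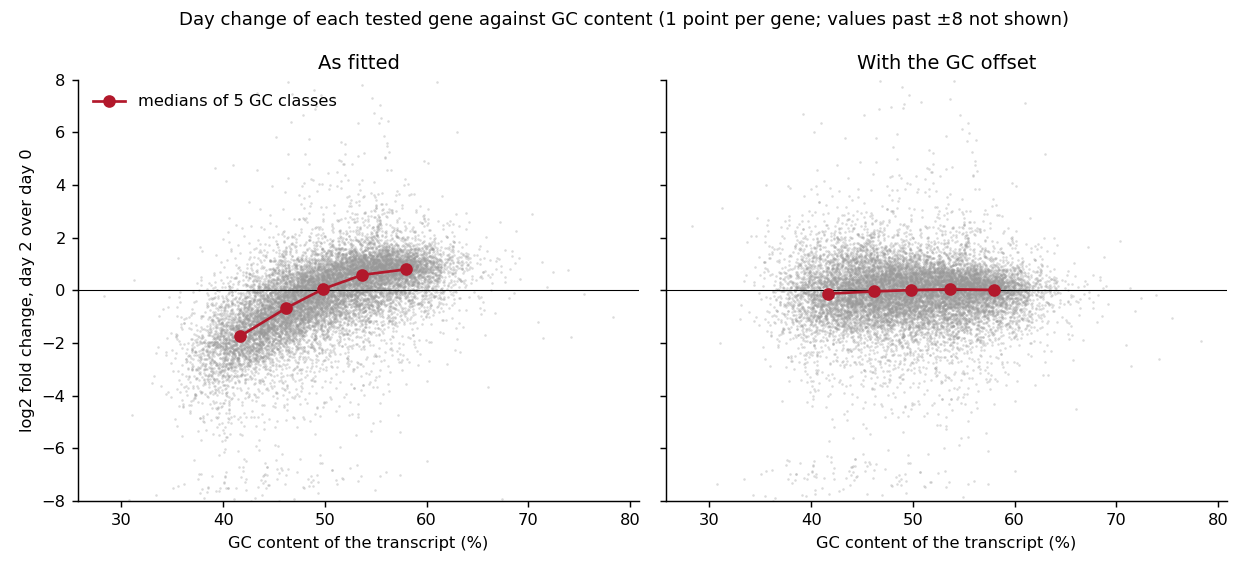
Log2 fold change, day 2 over day 0, of each tested gene against the GC content of its transcript in percent, as fitted (left) and with the GC offset (right), with red points for the medians of 5 GC classes at their median GC content. The medians climb from -1.74 in the lowest class to 0.79 in the highest on the left, and lie between -0.13 and 0.034 on the right.

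**Figure D2:**
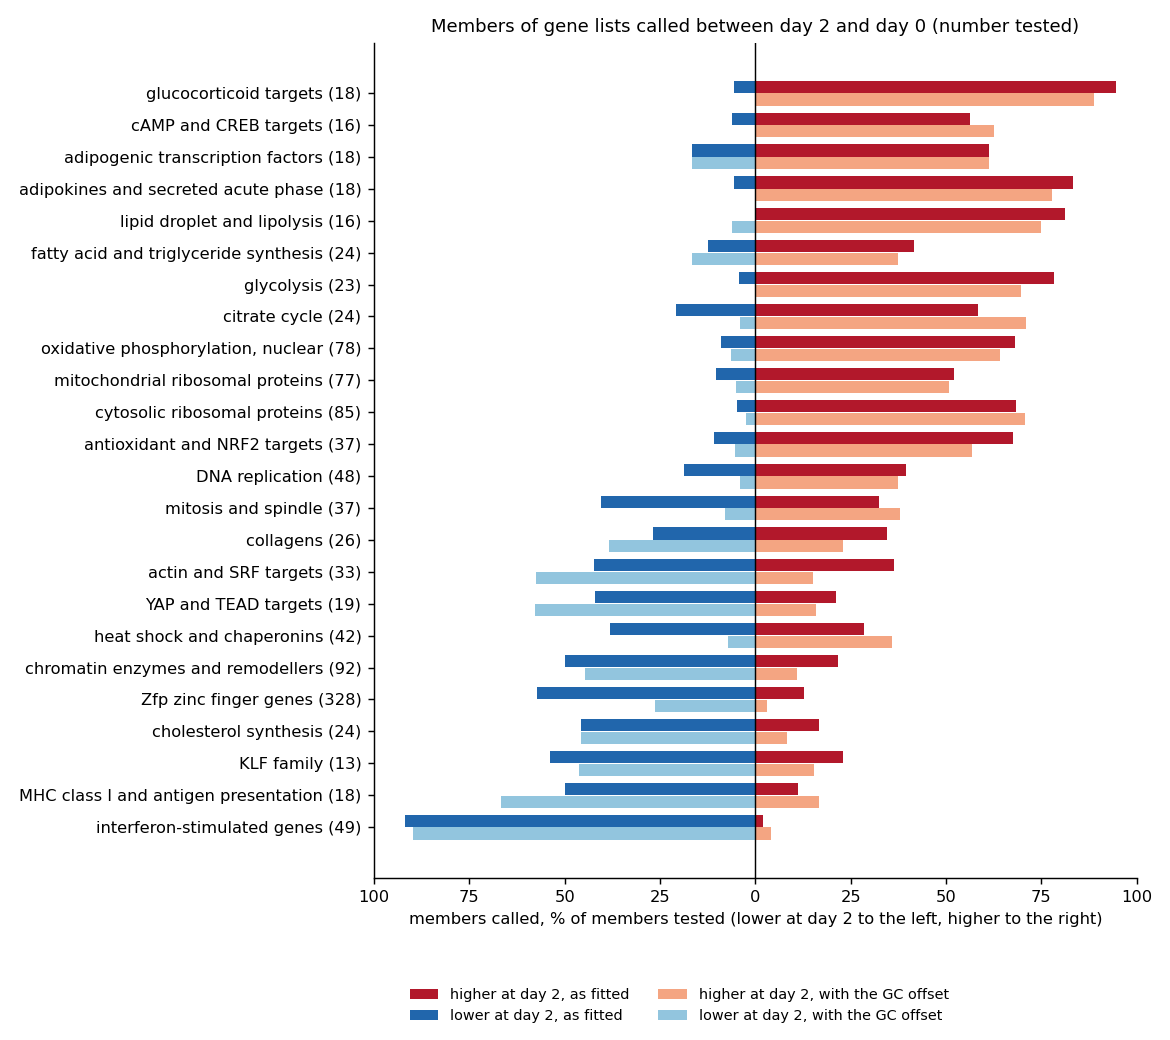
Share of the tested members of 24 gene lists called higher at day 2 (right of 0) and lower at day 2 (left of 0), in percent, as fitted (dark) and with the GC offset (light), with the number tested in brackets. Interferon-stimulated genes stand at the bottom with 45 of 49 lower, and glucocorticoid targets at the top with 17 of 18 higher, whereas heat shock genes and mitotic genes lose most of their lower calls with the offset.

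Targets of the glucocorticoid receptor rose nearly throughout. Of 18 tested, 17 rose and 1 fell, and with the GC offset 16 rose and 0 fell, and the median log2 fold change was 3.23 as fitted and 2.73 with the GC offset, against -0.066 and -0.018 over all tested genes. Fkbp5 (ENSMUSG00000024222), a co-chaperone that dampens the receptor, had 319, 301 and 379 CPM at day 2, against 21.6, 21.7 and 24.6 CPM at day 0. Every day 2 library was far above every day 0 library (log2 ratio 3.88 with SE 0.12 and adjusted p = 5.04e-07, or 3.58 with the GC offset). Tsc22d3, which encodes the anti-inflammatory mediator GILZ, had 721, 564 and 703 CPM at day 2, against 55.8, 58.0 and 60.1 CPM at day 0. The libraries within each day were close and the days far apart (log2 ratio 3.52 with SE 0.11 and adjusted p = 5.04e-07, or 3.81 with the GC offset). Glul, glutamine synthetase, had 361, 399 and 332 CPM at day 2, against 23.8, 27.6 and 27.9 CPM at day 0. Glul had a log2 ratio of 3.79 with SE 0.12 and adjusted p = 5.04e-07, or 3.85 with the GC offset. The phosphatase Dusp1 and the clock gene Per1 rose by 3.53 and 3.19 in log2 units (adjusted p = 3.9e-06 and 7.41e-07). Per1 was at 2.38 with the GC offset and Dusp1 at 2.89.

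At the top of the same list stood genes almost silent before induction. Lcn2 (ENSMUSG00000026822), a secreted lipocalin that binds bacterial siderophores, had 134, 144 and 114 CPM at day 2, against 0.529, 0.37 and 0.0599 CPM at day 0. All day 2 libraries lay far above the day 0 libraries (log2 ratio 8.55 with SE 0.33 and adjusted p = 8.83e-07, or 7.97 with the GC offset). Zbtb16, a zinc finger repressor also called PLZF, had 29.0, 29.9 and 27.4 CPM at day 2, against 0.132, 0.106 and 0.12 CPM at day 0. The day 0 values of Zbtb16 rest on very few counts, so the size of its ratio is uncertain. Zbtb16 had a log2 ratio of 7.81 with SE 0.31 and adjusted p = 8.85e-07, or 7.27 with the GC offset. The metallothioneins Mt1 and Mt2, small metal-binding proteins, rose by 2.58 and 3.27 in log2 units (adjusted p = 5.04e-07 and 7.41e-07, and 2.11 and 2.58 with the GC offset). Klf9 was the member called lower, at 35.1, 20.4 and 33.0 CPM at day 2, against 50.4, 42.9 and 39.5 CPM at day 0 (log2 fold change -0.59, adjusted p = 0.0425). Its call was lost with the GC offset (log2 fold change -0.20, adjusted p = 0.525) and without day 0 replicate 1, 2 or 3 or day 2 replicate 2. The glucocorticoid receptor gene itself, Nr3c1, had 26.5, 11.4 and 24.4 CPM at day 2, against 128, 124 and 101 CPM at day 0, and so fell while its targets rose. Nr3c1 had a log2 ratio of -2.51 with SE 0.28 and adjusted p = 0.0001, or -1.03 with the GC offset.

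Hsd11b1 (ENSMUSG00000016194), the enzyme that regenerates active glucocorticoid inside the cell, had 14.05, 33.8 and 18.8 CPM at day 2, against 0.176, 0.106 and 0.0599 CPM at day 0. The day 2 libraries differed among themselves by more than those of most targets, yet none came near day 0 (log2 ratio 7.45 with SE 0.55 and adjusted p = 1.38e-05, or 7.95 with the GC offset). Very few counts underlie the day 0 values of Hsd11b1, so the size of its ratio is uncertain. Vdr, the vitamin D receptor, had 384, 481 and 404 CPM at day 2, against 30.3, 37.0 and 39.1 CPM at day 0. Vdr had a log2 ratio of 3.58 with SE 0.14 and adjusted p = 8.83e-07, or 3.17 with the GC offset.

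Genes that answer to cAMP and its transcription factor CREB rose in part. Of 16 tested, 9 rose and 1 fell, and with the GC offset 10 rose and 0 fell. Nr4a1, an orphan nuclear receptor induced at once by cAMP, had 133, 150.1 and 151 CPM at day 2, against 9.88, 10.99 and 14.3 CPM at day 0. No library was taken between the days, so its course until day 2 is not known. Nr4a1 had a log2 ratio of 3.63 with SE 0.16 and adjusted p = 1.56e-06, or 2.89 with the GC offset. Pde4b and Pde4d, phosphodiesterases that break down cAMP, rose by 3.10 and 2.90 in log2 units (adjusted p = 2.64e-05 and 1.49e-05, and 3.80 and 2.85 with the GC offset). Rgs2, which limits signalling by G proteins, had 209.9, 296 and 223 CPM at day 2, against 30.2, 31.2 and 25.1 CPM at day 0. Rgs2 had a log2 ratio of 3.07 with SE 0.16 and adjusted p = 3.09e-06, or 4.26 with the GC offset. Dio2, which converts thyroxine to the active thyroid hormone, had 27.6, 14.04 and 7.34 CPM at day 2, against 0.265, 1.32 and 0.479 CPM at day 0. Its 3 day 2 values were spread widely but all exceeded day 0 (log2 ratio 4.57 with SE 0.71 and adjusted p = 0.000605, or 5.79 with the GC offset). Sik1, a kinase that restrains CREB, rose by 2.19 (adjusted p = 2.2e-06, and 1.54 with the GC offset). Ppargc1a, a coactivator of mitochondrial genes, was the member called lower, by 2.07 in log2 units (adjusted p = 0.0168), and that call was lost with the GC offset (log2 fold change -0.51, adjusted p = 0.503) and without day 0 replicate 1 or day 2 replicate 2.

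Promoters of 2 such genes are shown because they hold the textbook motif of the pathway, with 1 match each in the 250 bases before the transcript start (RefSeq, GRCm38.p6). The capitals mark the motif, the glucocorticoid response element ACANNNTGT in Lcn2 and the cAMP response element TGACGTCA in Dio2. Each was searched on both strands in windows from 250 bases before to 50 bases after the start, and the 2 motifs were counted separately.
Lcn2, chr2:32387740-32387989, minus strand: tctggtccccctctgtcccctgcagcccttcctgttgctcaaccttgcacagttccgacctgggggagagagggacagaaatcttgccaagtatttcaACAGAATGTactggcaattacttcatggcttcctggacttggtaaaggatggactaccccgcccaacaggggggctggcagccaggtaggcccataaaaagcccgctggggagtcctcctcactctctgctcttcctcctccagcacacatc
Dio2, chr12:90739039-90739288, minus strand: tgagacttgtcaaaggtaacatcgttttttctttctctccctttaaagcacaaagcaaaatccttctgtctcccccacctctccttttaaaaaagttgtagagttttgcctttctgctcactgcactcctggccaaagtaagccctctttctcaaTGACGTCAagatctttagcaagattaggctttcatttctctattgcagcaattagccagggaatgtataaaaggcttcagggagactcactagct
The match starts 152 bases before the start in Lcn2 and 95 bases before it in Dio2. Of 32851 promoters in the table, 6.85% held ACANNNTGT and of the 12198 promoters of tested genes 4.099%, against 5 of 24 promoters of the glucocorticoid list (Lcn2, Glul, Mt1 and Sgk1). The full cAMP element was in 1.79% of all promoters, in 3.04% of those of tested genes and in 1 of 14 promoters of the cAMP list, that of Dio2. Its first 5 letters, TGACG, were in 20.8% of all, in 31.3% of those of tested genes and in 10 of 14. Not every listed gene has a promoter in the table (15 of 18 and 11 of 16 do), and these are letter matches, not evidence of binding.

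**Figure D3:**
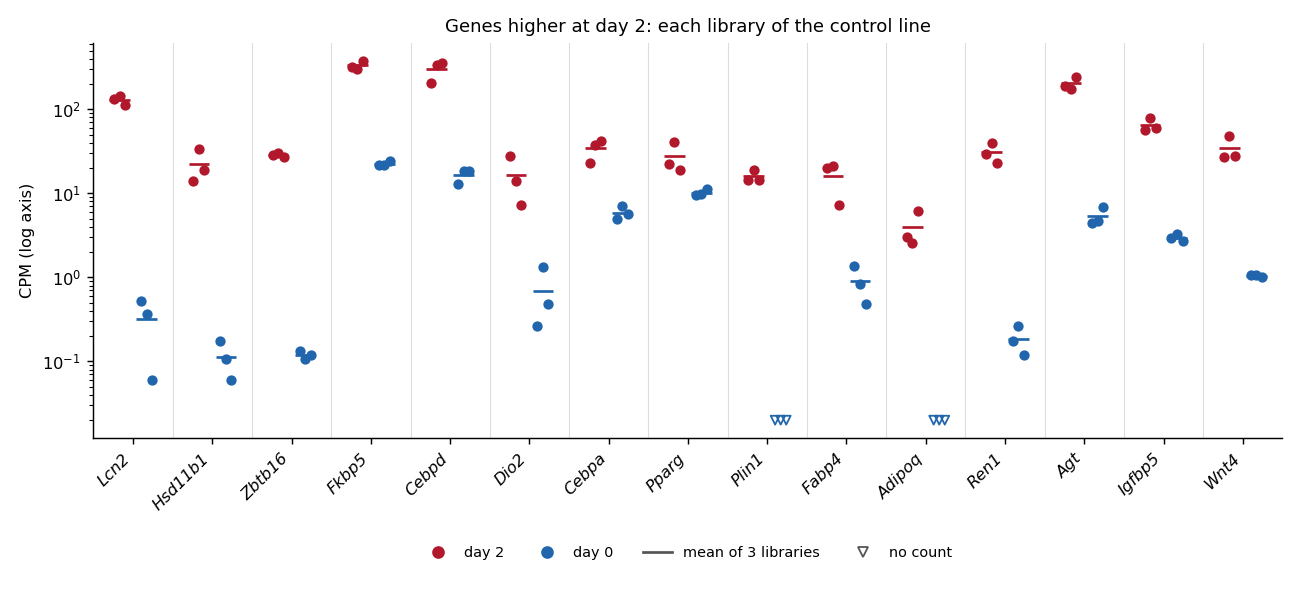
CPM on a log axis of 15 genes higher at day 2, with each library as a point (day 2 red, left of day 0 blue), a bar for the mean of 3 libraries, and open triangles where a library had no count. The days do not overlap for any of them, and Plin1 and Adipoq have no count in any day 0 library.

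Most transcription factors that drive adipogenesis rose, by unequal amounts. Of 18 tested, 11 rose and 3 fell, and with the GC offset 11 rose and 3 fell. Without day 0 replicate 1 the falls numbered 1. The early factor Cebpd (ENSMUSG00000071637) had 206, 337 and 351 CPM at day 2, against 13.0, 18.5 and 18.5 CPM at day 0 (log2 ratio 4.16 with SE 0.24 and adjusted p = 4.74e-06, or 3.86 with the GC offset), and its partner Cebpb had 129, 163 and 137 CPM at day 2, against 21.4, 25.4 and 24.2 CPM at day 0 (log2 ratio 2.59 with SE 0.13 and adjusted p = 2.76e-06, or 1.64 with the GC offset). Both were far higher in every day 2 library, although Cebpd was lower in day 2 replicate 1 than in the others. Cebpa (ENSMUSG00000034957), a factor of the terminal stage, had 22.8, 38.0 and 41.8 CPM at day 2, against 4.98, 7.08 and 5.63 CPM at day 0. Cebpa had a log2 ratio of 2.53 with SE 0.28 and adjusted p = 8.97e-05, or 1.63 with the GC offset. Pparg, the master regulator of fat cells, had 22.6, 40.8 and 19.1 CPM at day 2, against 9.52, 9.88 and 11.2 CPM at day 0. Pparg had a log2 ratio of 1.43 with SE 0.30 and adjusted p = 0.00297, or 1.32 with the GC offset. Its day 2 replicate 2 stood above the other day 2 libraries, which were still above every day 0 library. Nfil3, a basic leucine zipper repressor, had 122, 146 and 150.4 CPM at day 2, against 10.7, 9.61 and 11.9 CPM at day 0. Nfil3 had a log2 ratio of 3.70 with SE 0.14 and adjusted p = 8.83e-07, or 3.08 with the GC offset. Among partners and lipid regulators, Rxra, which pairs with PPARγ, rose by 2.28 and Srebf1, which drives lipogenic genes, by 2.24 in log2 units (adjusted p = 8.83e-07 and 1.82e-06, and 1.53 and 1.46 with the GC offset).

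The Krüppel-like factors moved in both directions. Of 13 tested, 3 rose and 7 fell, and with the GC offset 2 rose and 6 fell. The falls of this family were 3 without day 0 replicate 1 or 2, with 2 rises, and 4 with length added to the GC offset. Klf5, which C/EBPβ and C/EBPδ induce on the way to Pparg, had 66.2, 68.3 and 104 CPM at day 2, against 11.5, 12.8 and 12.2 CPM at day 0. Klf5 had a log2 ratio of 2.71 with SE 0.20 and adjusted p = 1.42e-05, or 3.01 with the GC offset. Klf6 had 28.5, 32.4 and 21.1 CPM at day 2, against 176, 175 and 151 CPM at day 0, the largest fall of a called member. Klf6 had a log2 ratio of -2.61 with SE 0.16 and adjusted p = 6.29e-06, or -1.18 with the GC offset. Klf4 and Klf7 fell by 0.54 and by 1.36 in log2 units (adjusted p = 0.018 and 0.000139), and with the GC offset they were at -1.17 and -0.53 (adjusted p = 0.000555 and 0.0338). The call of Klf4 as fitted was lost without day 0 replicate 1 or 2. Dlk1, the preadipocyte factor that is lost from mature adipocytes, had 6164, 6192 and 7902 CPM at day 2, against 5700.3, 6153 and 6674 CPM at day 0. The groups overlapped, and the difference did not pass as fitted (log2 fold change 0.13, adjusted p = 0.331) but was called lower with the GC offset (log2 fold change -0.42, adjusted p = 0.011). Of 17 genes of progenitors, 5 rose and 5 fell, and with the GC offset 5 rose and 7 fell. As fitted the tested members ran from -4.04 to 3.01 in log2 units, with a median of -0.18. Rises among these progenitor genes were 2 without day 0 replicate 1 or 2, and 3 without day 2 replicate 2 or day 0 replicate 3. The shares as fitted, 29.4% higher and 29.4% lower, were near the 29.3% and 30.3% of all tested genes. In both fits 3 members were called higher and 3 lower, and the next values are of rises only. Of the rises, Pi16, a marker of adventitial progenitors, had 43.4, 36.3 and 35.6 CPM at day 2, against 4.50, 5.02 and 4.79 CPM at day 0. Pi16 had a log2 ratio of 3.01 with SE 0.19 and adjusted p = 6.29e-06, or 2.36 with the GC offset. The surface antigen Ly6a had 124, 161 and 114 CPM at day 2, against 36.3, 45.6 and 36.9 CPM at day 0. Ly6a had a log2 ratio of 1.75 with SE 0.16 and adjusted p = 3.49e-05, or 2.01 with the GC offset.

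Most genes of the lipid droplet and of lipolysis rose, several from no detectable count. Of 16 tested, 13 rose and 0 fell, and with the GC offset 12 rose and 1 fell, with a median of 1.43 on the log2 scale, the same when members without a count in a group are placed at their lower bound. Plin1 (ENSMUSG00000030546), which coats the droplet and gates its lipases, had 14.5, 19.1 and 14.5 CPM at day 2 and no count in any day 0 library. Against a floor of 3 counts over the group it was at least 312-fold higher (adjusted p = 2.55e-05). On the same footing Cidec, which fuses droplets, was at least 289-fold higher and G0s2, an inhibitor of the main triglyceride lipase, at least 86.2-fold (adjusted p = 4.7e-05 and 0.000625). Fabp4, a fatty acid carrier of fat cells, had 19.8, 21.1 and 7.34 CPM at day 2, against 1.37, 0.845 and 0.479 CPM at day 0. Day 2 replicate 3 was the lowest of its group and still above day 0 (log2 ratio 4.14 with SE 0.56 and adjusted p = 0.000267, or 6.03 with the GC offset). Lipe, the hormone-sensitive lipase, had 83.4, 83.1 and 75.7 CPM at day 2, against 9.08, 12.5 and 11.1 CPM at day 0. Lipe had a log2 ratio of 2.89 with SE 0.16 and adjusted p = 3.42e-06, or 2.203 with the GC offset. Of genes already counted before induction, Plin2, a droplet protein of many cell types, rose by 1.34 and Lpl, which frees fatty acids from lipoproteins, by 0.49 in log2 units (adjusted p = 7e-06 and 0.00627, and 0.97 and 1.70 with the GC offset).

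Genes of fatty acid and triglyceride synthesis were divided. Of 24 genes, 10 rose and 3 fell, and with the GC offset 9 rose and 4 fell. Fasn, fatty acid synthase, had 876, 782 and 827 CPM at day 2, against 221, 231 and 270.0 CPM at day 0. Fasn had a log2 ratio of 1.78 with SE 0.097 and adjusted p = 3.42e-06, or 1.01 with the GC offset. Dgat2, which adds the last acyl chain of a triglyceride, had 15.3, 16.2 and 7.89 CPM at day 2, against 1.90, 1.69 and 1.02 CPM at day 0. Dgat2 had a log2 ratio of 3.09 with SE 0.44 and adjusted p = 0.000346, or 2.37 with the GC offset. Scd2, a desaturase, rose slightly, with 899, 996 and 917 CPM at day 2, against 738, 768 and 780.2 CPM at day 0 (log2 fold change 0.30, adjusted p = 0.00591, and 0.31 with the GC offset). Elovl6, which lengthens fatty acids, fell to 21.96, 13.6 and 18.3 CPM at day 2, against 61.7, 56.5 and 43.9 CPM at day 0. Elovl6 had a log2 ratio of -1.59 with SE 0.21 and adjusted p = 0.000262, a call lost with the GC offset (log2 fold change -0.48, adjusted p = 0.0748).

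Genes of cholesterol synthesis fell more often than they rose. Of 24 genes of the pathway and its control, 4 rose and 11 fell, and with the GC offset 2 rose and 11 fell, and the median log2 fold change was -0.47 as fitted and -0.60 with the GC offset. Hmgcs1 (ENSMUSG00000093930), an early enzyme of the pathway, had 45.8, 43.0 and 24.5 CPM at day 2, against 251, 250.3 and 204 CPM at day 0. Hmgcs1 had a log2 ratio of -2.63 with SE 0.22 and adjusted p = 2.32e-05, or -1.35 with the GC offset. Insig1, a sterol sensor and itself a target of the pathway's regulator, had 12.5, 16.2 and 30.8 CPM at day 2, against 75.2, 78.0 and 76.3 CPM at day 0. Insig1 had a log2 ratio of -1.96 with SE 0.29 and adjusted p = 0.000471, or -1.72 with the GC offset. Sqle, squalene epoxidase, had 55.7, 57.1 and 42.1 CPM at day 2, against 95.5, 103 and 89.0 CPM at day 0, with no overlap between the days. Sqle had a log2 ratio of -0.89 with SE 0.14 and adjusted p = 0.000662, or -0.85 with the GC offset.

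Most genes of glycolysis rose. Of 23 genes, 18 rose and 1 fell, and with the GC offset 16 rose and 0 fell, and the median log2 fold change was 1.71 as fitted and 1.31 with the GC offset. Pfkl, a phosphofructokinase at the committed step, had 762, 881 and 898 CPM at day 2, against 135, 153 and 129.8 CPM at day 0. Pfkl had a log2 ratio of 2.60 with SE 0.10 and adjusted p = 8.85e-07, or 1.86 with the GC offset. Tpi1, triose phosphate isomerase, had 2216, 2538 and 2356 CPM at day 2, against 394, 482 and 451 CPM at day 0. Tpi1 had a log2 ratio of 2.42 with SE 0.096 and adjusted p = 8.85e-07, or 1.89 with the GC offset. Ldha, which makes lactate, had 1807, 2248 and 2009 CPM at day 2, against 406, 449 and 404 CPM at day 0. Ldha had a log2 ratio of 2.27 with SE 0.097 and adjusted p = 1.18e-06, or 1.98 with the GC offset. For each of these the lowest day 2 library lay well above the highest day 0 library. Gapdh had 290.1, 104 and 85.0 CPM at day 2, against 18.6, 21.4 and 20.5 CPM at day 0 (log2 ratio 2.99 with SE 0.44 and adjusted p = 0.00042, or 2.26 with the GC offset). Gapdh has many near-identical processed copies and how shared reads were counted is not stated, so its value is uncertain. The glucose carrier Slc2a1 had 155, 200.4 and 154 CPM at day 2, against 88.2, 90.0 and 92.8 CPM at day 0. Slc2a1 had a log2 ratio of 0.91 with SE 0.12 and adjusted p = 0.000243, a call lost with the GC offset (log2 fold change 0.33, adjusted p = 0.0508).

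Around the citrate cycle 14 of 24 genes rose and 5 fell, and with the GC offset 17 rose and 1 fell. Pcx (ENSMUSG00000024892), pyruvate carboxylase, which feeds oxaloacetate into the cycle and into lipogenesis, changed most, with 445, 415 and 508 CPM at day 2, against 27.7, 27.8 and 31.0 CPM at day 0. Pcx had a log2 ratio of 3.98 with SE 0.11 and adjusted p = 4.52e-07, or 3.21 with the GC offset. Sucla2, a subunit of succinyl-CoA synthetase, had 15.5, 14.8 and 16.3 CPM at day 2, against 71.6, 70.0 and 49.7 CPM at day 0. Sucla2 had a log2 ratio of -2.04 with SE 0.18 and adjusted p = 2.74e-05, or -0.76 with the GC offset. Dld, a subunit shared by several dehydrogenase complexes, had 25.7, 25.6 and 29.4 CPM at day 2, against 126, 127 and 89.2 CPM at day 0. Dld had a log2 ratio of -2.09 with SE 0.16 and adjusted p = 1.76e-05, and that call was lost with the GC offset (log2 fold change -0.29, adjusted p = 0.0963). For the oxidation of fatty acids 12 rose and 7 fell, and with the GC offset 13 rose and 2 fell of 24. The falls in this list were 4 without day 0 replicate 1. Acads, an acyl-CoA dehydrogenase, rose by 1.68 and Cpt2, which reforms acyl-CoA inside mitochondria, by 1.46 in log2 units (adjusted p = 6.47e-05 and 2.61e-05, and 0.83 and 1.03 with the GC offset). The largest change of this list was a fall, that of Acsl3 (log2 fold change -2.31, adjusted p = 1.58e-05). With the GC offset Acsl3 was still called lower (log2 fold change -1.04, adjusted p = 0.00076).

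Subunits of the respiratory chain encoded in the nucleus rose widely and by small amounts. Of 78 tested, 53 rose and 7 fell, and with the GC offset 50 rose and 5 fell, with a median log2 fold change of 0.82 as fitted and 0.60 with the GC offset. Uqcrc1, a core subunit of complex III, had 348, 323 and 435 CPM at day 2, against 117, 124 and 139.8 CPM at day 0. Uqcrc1 had a log2 ratio of 1.54 with SE 0.13 and adjusted p = 2.29e-05, or 0.77 with the GC offset. Ndufv3, of complex I, had 292, 281 and 295 CPM at day 2, against 89.5, 79.7 and 81.5 CPM at day 0. Ndufv3 had a log2 ratio of 1.79 with SE 0.086 and adjusted p = 2.11e-06, or 1.08 with the GC offset. When transcript length was added to the offset, where 20.1% of all genes rose and 18.8% fell, 35 of the nuclear subunits rose and 7 fell. Without day 0 replicate 1 or 2, 4 of them fell as fitted. The 10 subunits encoded in mitochondrial DNA did not follow: as fitted 0 rose and 5 fell, and the falls were 2 without day 0 replicate 1 or 2 and 3 without day 2 replicate 1. All mitochondrially encoded transcripts together were 2.67%, 2.63% and 2.43% of the counts at day 2, against 4.41%, 4.13% and 3.50% at day 0. mt-Cytb, of complex III like Uqcrc1, had 3849, 3876 and 3557 CPM at day 2, against 8706, 7404 and 5765 CPM at day 0 (log2 ratio -0.96 with SE 0.13 and adjusted p = 0.00032). These transcripts are low in GC content, and with the GC offset 8 of them were called higher and 0 lower, with mt-Cytb at 1.16 (adjusted p = 1.91e-05), so their direction rests on the treatment of GC content.

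Ribosomal protein genes rose in larger shares than all genes. Of 85 genes of the cytosolic ribosome, 58 rose and 4 fell, and with the GC offset 60 rose and 2 fell (35 and 6 with length added). As fitted 2 fell without day 0 replicate 2. Rplp0, of the large subunit's stalk, had 6343, 6667 and 6645 CPM at day 2, against 2058, 2214 and 2310.1 CPM at day 0, with no day 2 library near day 0. Rplp0 had a log2 ratio of 1.58 with SE 0.068 and adjusted p = 1.18e-06, or 1.10 with the GC offset. Rpl37a had 433, 415 and 365 CPM at day 2, against 102, 104 and 111 CPM at day 0 (log2 ratio 1.93 with SE 0.094 and adjusted p = 2.11e-06, or 2.38 with the GC offset). Many of these genes have near-identical processed copies, so single members are uncertain. Of 77 genes of the mitochondrial ribosome, 40 rose and 8 fell, and with the GC offset 39 rose and 4 fell (27 and 9 with length added). Mrpl4 had 82.2, 85.9 and 129.9 CPM at day 2, against 28.4, 28.9 and 35.5 CPM at day 0 (log2 ratio 1.68 with SE 0.20 and adjusted p = 0.00012, or 0.84 with the GC offset).

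**Figure D4:**
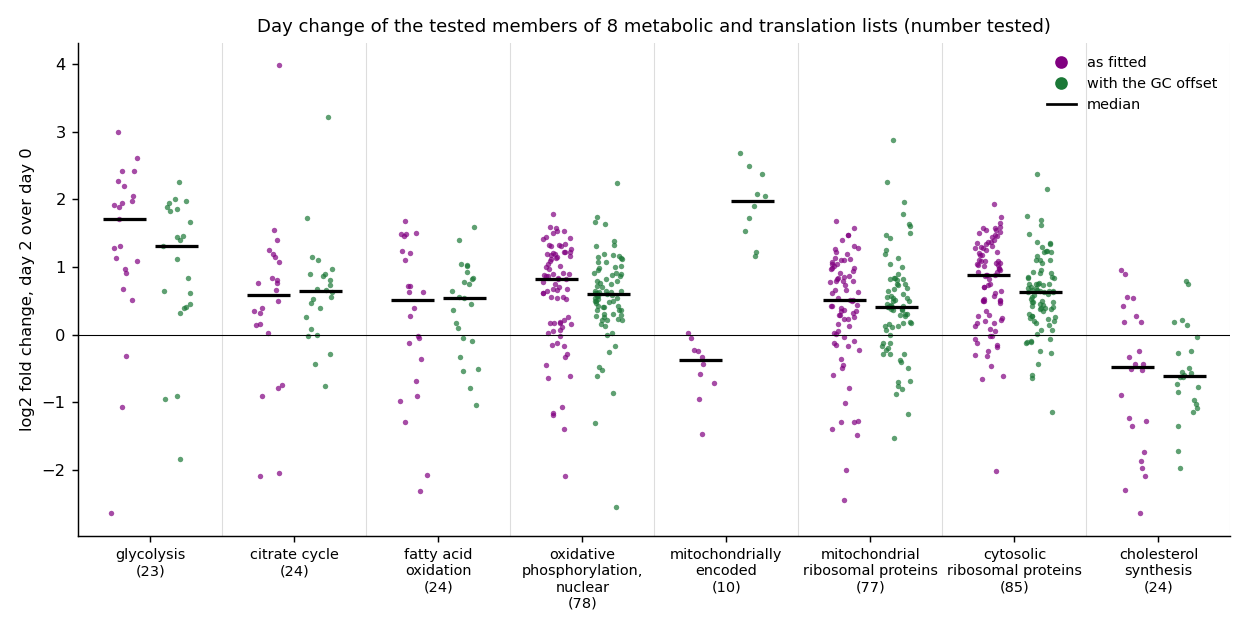
Log2 fold change, day 2 over day 0, of every tested member of 8 lists, as fitted (purple, left) and with the GC offset (green, right), with a black bar at each median. Glycolysis lies highest among the lists as fitted, at a median of 1.71, cholesterol synthesis lies lower in both fits, and the mitochondrially encoded genes have a median of -0.38 as fitted and 1.98 with the offset.

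Secreted proteins of fat cells and of the acute phase were among the strongest rises. Of 18 tested, 15 rose and 1 fell, and with the GC offset 14 rose and 0 fell. Adipoq, the hormone adiponectin, had 3.07, 2.60 and 6.23 CPM at day 2 and no count at day 0, at least 77.1-fold higher (adjusted p = 0.000861). Retnla, a secreted relative of resistin, had 28.4, 60.8 and 33.6 CPM at day 2 and no count at day 0, at least 797-fold higher (adjusted p = 2.43e-05). C3 (ENSMUSG00000024164), the central complement protein, was present at both days and rose, with 2968, 2803 and 2358 CPM at day 2, against 170.1, 141 and 180.4 CPM at day 0. C3 had a log2 ratio of 4.05 with SE 0.13 and adjusted p = 5.04e-07, or 3.53 with the GC offset. Hp, haptoglobin, which binds free haemoglobin, had 25.9, 27.2 and 19.2 CPM at day 2, against 0.397, 0.211 and 0.18 CPM at day 0. Hp had a log2 ratio of 6.44 with SE 0.39 and adjusted p = 5.36e-06, or 5.73 with the GC offset. Among chemokines and regulators of NF-kB, 11 rose and 7 fell, and with the GC offset 12 rose and 5 fell of 35. Their shares as fitted were 31.4% and 20%, against 29.3% and 30.3% of all tested genes. Chemokine and NF-kB genes had 11 falls without day 2 replicate 2 and 12 without day 2 replicate 3. Cx3cl1, a chemokine anchored to the cell surface, had 618, 586 and 632 CPM at day 2, against 93.9, 86.1 and 109 CPM at day 0. Cx3cl1 had a log2 ratio of 2.67 with SE 0.10 and adjusted p = 8.83e-07, or 1.92 with the GC offset. Cxcl10, a chemokine induced by interferon, had 0.499, 1.34 and 0 CPM at day 2, against 14.5, 13.0 and 11.03 CPM at day 0. Cxcl10 had a log2 ratio of -4.29 with SE 0.76 and adjusted p = 0.00122, or -4.36 with the GC offset.

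Renin, its substrate angiotensinogen, an angiotensin receptor and an aminopeptidase that trims angiotensins rose. Ren1 (ENSMUSG00000070645), which encodes renin, had 29.1, 39.9 and 23.1 CPM at day 2, against 0.176, 0.264 and 0.12 CPM at day 0. Ren1 had a log2 ratio of 7.29 with SE 0.39 and adjusted p = 3.32e-06, or 6.67 with the GC offset. Few counts underlie its day 0 values, so the size of the ratio is uncertain. Agt, angiotensinogen, the substrate of renin, had 191, 177 and 242 CPM at day 2, against 4.50, 4.70 and 6.95 CPM at day 0. Agt had a log2 ratio of 5.25 with SE 0.21 and adjusted p = 9.52e-07, or 4.53 with the GC offset. Agtr2, the type 2 angiotensin receptor, had 31.3, 38.3 and 24.4 CPM at day 2, against 1.23, 1.00 and 1.56 CPM at day 0. Agtr2 had a log2 ratio of 4.63 with SE 0.29 and adjusted p = 6.82e-06, or 6.69 with the GC offset. Anpep, the aminopeptidase, had 159.8, 117 and 149 CPM at day 2, against 29.7, 29.4 and 33.1 CPM at day 0. Anpep had a log2 ratio of 2.21 with SE 0.14 and adjusted p = 6.82e-06, or 1.69 with the GC offset. No day 2 library of these 4 genes came down to day 0. The list they belong to, which also holds hormone receptors, had 10 rises and 3 falls among 17 genes (9 and 3 with the GC offset). As fitted its members ran from -6.97 to 7.45 in log2 units, and the 3 falls were called in both fits.

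Insulin and IGF signalling showed its largest rises at 2 binding proteins. Of 23 genes, 10 rose and 5 fell, and with the GC offset 9 rose and 3 fell. Igfbp4 (ENSMUSG00000017493), which sequesters IGFs, had 2098, 2646 and 2319.9 CPM at day 2, against 204, 231 and 229 CPM at day 0. Igfbp4 had a log2 ratio of 3.41 with SE 0.11 and adjusted p = 5.04e-07, or 2.75 with the GC offset. Another member, Igfbp5, had 57.3, 78.8 and 60.4 CPM at day 2, against 2.95, 3.28 and 2.70 CPM at day 0. Igfbp5 had a log2 ratio of 4.46 with SE 0.20 and adjusted p = 1.56e-06, or 4.33 with the GC offset. Irs1, the docking protein of both receptors, fell to 41.2, 33.1 and 33.1 CPM at day 2, against 112, 98.3 and 102 CPM at day 0. Irs1 had a log2 ratio of -1.54 with SE 0.13 and adjusted p = 2.49e-05, or -1.66 with the GC offset. Neither binding protein nor Irs1 overlapped between the days. For the ligand Igf1, with 73.4, 55.9 and 52.5 CPM at day 2, against 144, 121 and 95.00 CPM at day 0, the sign depended on the treatment of GC content (log2 fold change -0.98, adjusted p = 0.0016 as fitted, and 1.32, adjusted p = 2.04e-05 with the GC offset).

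Among Wnt genes, whose canonical signalling restrains adipogenesis, 5 rose and 5 fell, and with the GC offset 5 rose and 5 fell of 21. At 23.8% each as fitted, these shares lay under the 29.3% and 30.3% of all tested genes. Wnt genes had 3 falls with any one day 0 library left out. The ligand Wnt4 had 27.2, 48.2 and 28.0 CPM at day 2, against 1.06, 1.06 and 1.02 CPM at day 0. Wnt4 had a log2 ratio of 5.03 with SE 0.32 and adjusted p = 6.82e-06, or 4.34 with the GC offset. The coreceptor Lrp5 had 1042, 1052 and 1039 CPM at day 2, against 204, 189 and 224 CPM at day 0. Lrp5 had a log2 ratio of 2.34 with SE 0.084 and adjusted p = 7.41e-07, or 1.55 with the GC offset. Sfrp2, a secreted antagonist, had 13.98, 13.4 and 14.6 CPM at day 2, against 25.9, 25.7 and 26.5 CPM at day 0, nearly the same value in each library of a day. Sfrp2 had a log2 ratio of -0.90 with SE 0.17 and adjusted p = 0.00167, or -1.37 with the GC offset. Wnt4 and Lrp5 were thus higher in every day 2 library than in any of day 0, and Sfrp2 was lower. In the BMP and TGF-β family 9 rose and 4 fell, and with the GC offset 8 rose and 4 fell of 22. Inhba, the activin A subunit, had 8.13, 4.68 and 9.45 CPM at day 2, against 89.6, 68.5 and 46.3 CPM at day 0. Inhba had a log2 ratio of -3.21 with SE 0.32 and adjusted p = 5.34e-05, or -1.55 with the GC offset. Grem1, a BMP antagonist, fell by 1.62 and Id3, a target of BMP signalling, rose by 1.72 in log2 units (adjusted p = 0.000134 and 3.76e-05, and -0.67 and 1.03 with the GC offset). Inhba was already lower in day 0 replicate 3 than in the other day 0 libraries. The ligand Bmp5 had 8.34, 6.61 and 7.01 CPM at day 2, against 1.45, 0.74 and 1.02 CPM at day 0. Bmp5 had a log2 ratio of 2.76 with SE 0.47 and adjusted p = 0.00107, or 4.56 with the GC offset.

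Genes of the extracellular matrix moved in both directions. Of 26 collagen genes, 9 rose and 7 fell, and with the GC offset 6 rose and 10 fell. As fitted these were 34.6% and 26.9%, near the 29.3% and 30.3% of all tested genes. Collagen genes had 12 falls as fitted without day 2 replicate 3. Of the chains of basement membrane and of microfibrils, Col4a1 had 4091, 3449 and 3802 CPM at day 2, against 1140.0, 1063 and 1252 CPM at day 0. Col4a1 had a log2 ratio of 1.71 with SE 0.091 and adjusted p = 3.19e-06, or 0.95 with the GC offset. Col4a2, its partner in the same trimer, rose by 1.83 (adjusted p = 4.72e-06, and 0.99 with the GC offset). Col6a1 had 8216, 6372 and 7095 CPM at day 2, against 2489, 2515 and 2808 CPM at day 0 (log2 ratio 1.47 with SE 0.10 and adjusted p = 9.01e-06, or 0.74 with the GC offset). Of the fibril-forming chains, Col1a1 (ENSMUSG00000001506) had 3239.6, 2630.5 and 3044 CPM at day 2, against 5599, 5314 and 5768 CPM at day 0. Col1a1 had a log2 ratio of -0.90 with SE 0.086 and adjusted p = 4.15e-05, or -1.71 with the GC offset. Col1a2, the other chain of type I collagen, had 5577, 4776 and 5669 CPM at day 2, against 7028, 6849 and 7353 CPM at day 0. Col1a2 had a log2 ratio of -0.41 with SE 0.079 and adjusted p = 0.00205, or -1.10 with the GC offset. In both type I chains every day 2 library lay under every day 0 library. Of 17 genes that modify or cross-link collagen, 10 rose and 3 fell, and with the GC offset 7 rose and 4 fell. P4ha2, a prolyl 4-hydroxylase, had 369, 379 and 410.0 CPM at day 2, against 60.0, 67.9 and 60.1 CPM at day 0. P4ha2 had a log2 ratio of 2.62 with SE 0.094 and adjusted p = 7.41e-07, or 2.02 with the GC offset. P3h2, a prolyl 3-hydroxylase that acts on basement membrane collagen, had 69.0, 78.9 and 74.3 CPM at day 2, against 5.82, 7.34 and 7.37 CPM at day 0. P3h2 had a log2 ratio of 3.44 with SE 0.16 and adjusted p = 1.81e-06, or 3.01 with the GC offset.

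Of 26 genes of elastic fibres and small leucine-rich proteoglycans, 10 rose and 9 fell, and with the GC offset 6 rose and 8 fell. As fitted these were 38.5% and 34.6%, against 29.3% and 30.3% of all tested genes. Fmod, fibromodulin, which binds collagen fibrils, had 6.70, 2.23 and 3.78 CPM at day 2, against 46.9, 54.8 and 52.1 CPM at day 0. Fmod had a log2 ratio of -3.58 with SE 0.35 and adjusted p = 4.51e-05, or -4.14 with the GC offset. Ogn, osteoglycin, had 28.3, 13.8 and 41.3 CPM at day 2, against 463, 396 and 173 CPM at day 0 (log2 ratio -3.65 with SE 0.46 and adjusted p = 0.000175, or -0.96 with the GC offset). In Ogn, day 0 replicate 3 lay well under the other day 0 libraries, and yet above day 2. Bgn, biglycan, had 16943, 14294 and 16264 CPM at day 2, against 8505, 8560.5 and 8640.2 CPM at day 0 (log2 ratio 0.89 with SE 0.073 and adjusted p = 2.19e-05, or 0.47 with the GC offset). Dcn, decorin, had 377, 468 and 362 CPM at day 2, against 952, 917 and 817 CPM at day 0. Dcn had a log2 ratio of -1.15 with SE 0.11 and adjusted p = 4.78e-05, a call lost with the GC offset, where the sign turned (log2 fold change 0.19, adjusted p = 0.154). Among 20 matricellular proteins, 6 rose and 7 fell (30% and 35%), and with the GC offset 4 rose and 9 fell. Vcan, the large proteoglycan versican, had 3779, 3592 and 2561 CPM at day 2, against 746, 635 and 500.4 CPM at day 0. Vcan had a log2 ratio of 2.40 with SE 0.18 and adjusted p = 1.53e-05, or 3.56 with the GC offset. Thbs1, thrombospondin 1, which activates latent TGF-β, had 36.2, 38.2 and 29.4 CPM at day 2, against 230.0, 199 and 231 CPM at day 0. Thbs1 had a log2 ratio of -2.66 with SE 0.13 and adjusted p = 2.11e-06, or -2.71 with the GC offset. Of 27 matrix proteases and inhibitors, 9 rose and 9 fell (33.3% each), and with the GC offset 8 rose and 10 fell. Adamts15, which cleaves versican, had 58.9, 47.5 and 49.6 CPM at day 2, against 3.75, 2.48 and 2.64 CPM at day 0. Adamts15 had a log2 ratio of 4.13 with SE 0.22 and adjusted p = 3.35e-06, or 3.47 with the GC offset.

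Several contractile and stress fibre genes that SRF drives fell. Of 33 actin cytoskeleton genes, 12 rose and 14 fell, and with the GC offset 5 rose and 19 fell. As fitted 36.4% rose and 42.4% fell, both above the 29.3% and 30.3% of all tested genes, so the list moved in both directions. Acta2 (ENSMUSG00000035783), smooth muscle actin, had 138, 104 and 142 CPM at day 2, against 557, 544 and 639.6 CPM at day 0. Acta2 had a log2 ratio of -2.18 with SE 0.13 and adjusted p = 5.68e-06, or -2.18 with the GC offset. Tagln, transgelin, had 2.14, 0.594 and 2.00 CPM at day 2, against 31.9, 27.4 and 30.9 CPM at day 0 (log2 ratio -4.26 with SE 0.40 and adjusted p = 4.18e-05, or -4.68 with the GC offset). Tpm1, a tropomyosin of stress fibres, had 227, 204 and 246 CPM at day 2, against 1043, 1018 and 1079 CPM at day 0. Tpm1 had a log2 ratio of -2.21 with SE 0.088 and adjusted p = 8.85e-07, or -2.23 with the GC offset. The days were far apart in all of these, in every library. Nexn, which binds actin filaments, had 0.0713, 0.669 and 0 CPM at day 2, against 26.2, 25.8 and 12.05 CPM at day 0. Nexn had a log2 ratio of -6.27 with SE 0.76 and adjusted p = 0.000148, or -4.25 with the GC offset. Fhl2, the LIM-domain cofactor after which the other line is named and itself an SRF target, had 14.05, 14.3 and 21.6 CPM at day 2, against 57.4, 59.7 and 62.2 CPM at day 0. Fhl2 had a log2 ratio of -1.85 with SE 0.19 and adjusted p = 6.09e-05, or -2.25 with the GC offset. Day 0 replicate 3 was the lowest day 0 library for Nexn, and the days did not overlap for either gene. Actb, the main cytoplasmic actin, rose instead, with 3953, 3582 and 4048 CPM at day 2, against 1946, 2042 and 2301 CPM at day 0. Actb had a log2 ratio of 0.88 with SE 0.084 and adjusted p = 4.25e-05, or 0.64 with the GC offset. Targets and members of the YAP and TEAD pathway had 4 rises and 8 falls of 19 (3 and 11 with the GC offset). Ankrd1, a classical target, had 0.57, 0.149 and 0 CPM at day 2, against 7.98, 9.19 and 5.63 CPM at day 0. Ankrd1 had a log2 ratio of -4.83 with SE 0.82 and adjusted p = 0.001, or -4.52 with the GC offset. Among integrins and cadherins 2 rose and 10 fell, and with the GC offset 3 rose and 6 fell of 28. Integrins and cadherins had 6 falls without day 0 replicate 1 or 2 and 6 rises without day 2 replicate 3. The αv chain Itgav fell by 2.28 and the fibronectin receptor chain Itga5 rose by 1.33 in log2 units (adjusted p = 0.00015 and 2.03e-05, and -1.09 and 0.57 with the GC offset).

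**Figure D5:**
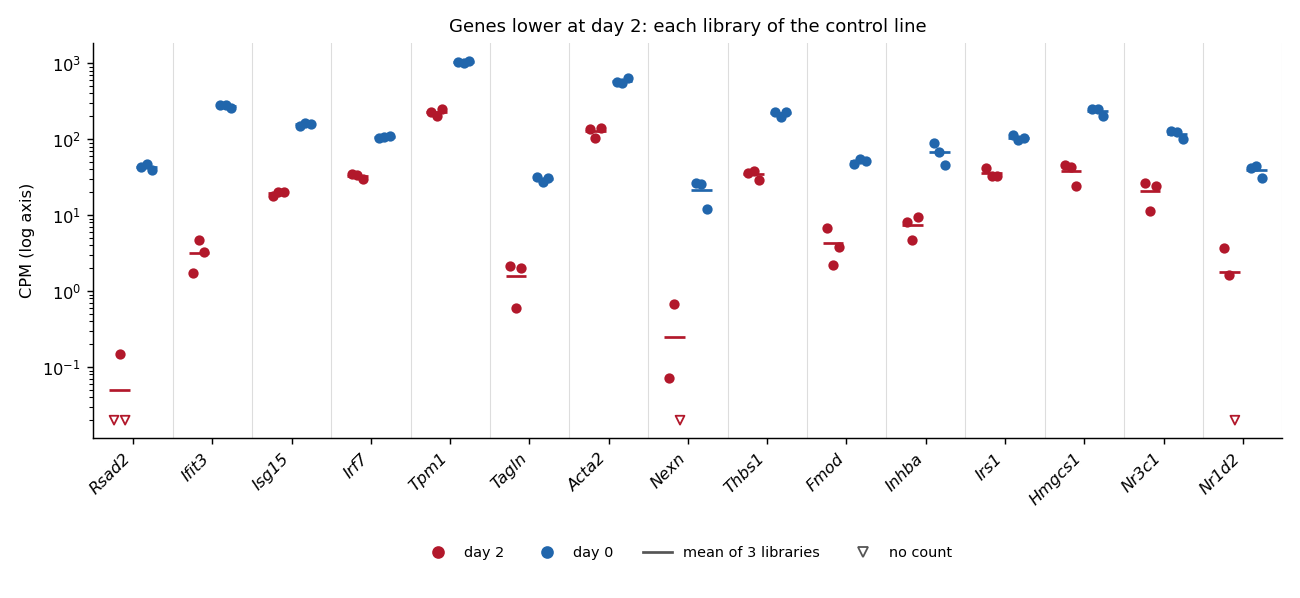
CPM on a log axis of 15 genes lower at day 2, drawn like the plot of induced genes (day 2 red, left of day 0 blue, bars for means of 3 libraries, open triangles for no count). The days do not overlap for any of them, and Rsad2 has a count in 1 of 3 day 2 libraries.

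Interferon-stimulated genes fell nearly throughout, and the days were far apart in the strongest of them. Of 49 tested, 1 rose and 45 fell, and with the GC offset 2 rose and 44 fell, with a median log2 fold change of -2.60 as fitted and -2.25 with the GC offset. Rsad2 (ENSMUSG00000020641), the antiviral enzyme viperin, had 0, 0.149 and 0 CPM at day 2, against 42.8, 47.5 and 39.5 CPM at day 0 (adjusted p = 2.29e-06). From 2 counts over the day 2 libraries and 2529 over those of day 0, day 0 was higher by 791-fold (95% exact interval 219 to 6534, counting error only). Ifit3 (ENSMUSG00000074896), an antiviral protein of the IFIT family, had 1.71, 4.68 and 3.22 CPM at day 2, against 285, 283 and 257 CPM at day 0. Ifit3 had a log2 ratio of -6.43 with SE 0.27 and adjusted p = 1.07e-06, or -6.06 with the GC offset. It has a near copy, Ifit3b, so reads may be split between them. Isg15, a ubiquitin-like modifier, had 18.0, 20.1 and 20.3 CPM at day 2, against 148, 162 and 159 CPM at day 0. Isg15 had a log2 ratio of -3.01 with SE 0.11 and adjusted p = 8.59e-07, or -3.47 with the GC offset. In each, all day 2 libraries lay far under all day 0 libraries. Irf7, a transcription factor of the response, had 34.3, 34.2 and 29.6 CPM at day 2, against 104, 107 and 109 CPM at day 0. Irf7 had a log2 ratio of -1.70 with SE 0.11 and adjusted p = 7.72e-06, or -2.37 with the GC offset. Ifi27 was the member that rose, with 131, 122 and 133 CPM at day 2, against 22.8, 23.9 and 26.7 CPM at day 0. Ifi27 had a log2 ratio of 2.39 with SE 0.11 and adjusted p = 2.02e-06, or 1.98 with the GC offset. Bulk RNA cannot tell fewer cells expressing a gene apart from less RNA per cell. In the antigen presentation pathway, of 18 genes, 2 rose and 9 fell, and with the GC offset 3 rose and 12 fell. Nlrc5, the transactivator of MHC class I genes, had 8.91, 11.1 and 4.45 CPM at day 2, against 41.9, 36.2 and 35.4 CPM at day 0. Nlrc5 had a log2 ratio of -2.19 with SE 0.30 and adjusted p = 0.000296, or -2.64 with the GC offset. B2m, the light chain of class I, had 2978, 3123 and 2649 CPM at day 2, against 3356, 3958 and 3424 CPM at day 0. Its sign turned with the GC offset (log2 fold change -0.30, adjusted p = 0.0197 as fitted, and 1.38, adjusted p = 5.15e-05 with it). Its call as fitted was lost without day 0 replicate 2 or day 2 replicate 1 or 3.

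The promoters of Rsad2, Ifit3 and Isg15 are shown because each holds the element that interferon-activated factors bind. The 250 bases before the start are printed from RefSeq (GRCm38.p6), with matches to the interferon-stimulated response element, searched as TTTC, any 2 bases and TTTC on both strands, in capitals.
Rsad2, chr12:26456453-26456702, minus strand: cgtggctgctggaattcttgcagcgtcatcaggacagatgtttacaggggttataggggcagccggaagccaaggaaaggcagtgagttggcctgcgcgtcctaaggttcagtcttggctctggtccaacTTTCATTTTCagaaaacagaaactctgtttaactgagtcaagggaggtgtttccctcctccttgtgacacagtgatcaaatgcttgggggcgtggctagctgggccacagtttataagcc
Ifit3, chr19:34583279-34583528, plus strand: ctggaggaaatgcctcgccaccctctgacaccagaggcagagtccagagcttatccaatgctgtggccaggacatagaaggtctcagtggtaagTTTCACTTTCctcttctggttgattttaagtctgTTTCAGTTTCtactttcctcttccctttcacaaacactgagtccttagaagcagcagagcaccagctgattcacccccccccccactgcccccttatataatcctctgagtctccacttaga
Isg15, chr4:156200819-156201068, minus strand: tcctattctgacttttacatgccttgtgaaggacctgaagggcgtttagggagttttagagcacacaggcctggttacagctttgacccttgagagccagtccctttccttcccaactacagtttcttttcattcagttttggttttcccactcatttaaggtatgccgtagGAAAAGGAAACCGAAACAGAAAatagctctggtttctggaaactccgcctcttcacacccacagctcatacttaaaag
Rsad2 has 1 match, starting 120 bases before the start, and Ifit3 has 2, at 156 and 122 bases. Isg15 has 3 matches that overlap in 1 run and begin 78, 72 and 66 bases before the start. In windows of 250 bases before to 50 bases after the start, 3.44% of 32851 promoters and 3.04% of the 12198 promoters of tested genes held the element. It was in 23 of 41 promoters of the interferon list (56.1%), which cover 35 of its 49 tested genes, and in 4 of 17 promoters of the antigen presentation list. The matches describe sequence and were not tested for binding.

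Several genes of DNA replication rose. Of 48 tested, 19 rose and 9 fell, and with the GC offset 18 rose and 2 fell. As fitted the members ran from -2.61 to 1.73 in log2 units, and those that fell are not shown. The falls of replication genes were 5 without day 0 replicate 2. Mcm5 (ENSMUSG00000005410), a subunit of the replicative helicase, had 162, 158 and 165 CPM at day 2, against 51.8, 56.7 and 55.6 CPM at day 0. Mcm5 had a log2 ratio of 1.56 with SE 0.092 and adjusted p = 5.04e-06, or 1.21 with the GC offset. Rrm2, the ribonucleotide reductase subunit made in S phase, had 48.4, 49.0 and 59.5 CPM at day 2, against 20.1, 17.9 and 18.8 CPM at day 0. Rrm2 had a log2 ratio of 1.46 with SE 0.15 and adjusted p = 5.87e-05, or 2.14 with the GC offset. Pold1, a replicative polymerase, had 40.1, 37.4 and 52.9 CPM at day 2, against 11.3, 11.5 and 16.7 CPM at day 0. Pold1 had a log2 ratio of 1.73 with SE 0.22 and adjusted p = 0.000198, or 0.87 with the GC offset. In all 3 every day 2 library lay above every day 0 library. Of 37 genes of mitosis and the spindle, 12 rose and 15 fell, and with the GC offset 14 rose and 3 fell, so most falls were not called after the offset. Without day 0 replicate 1 there were 9 falls as fitted. Aurkb, a mitotic kinase, had 20.8, 14.9 and 22.02 CPM at day 2, against 5.73, 6.18 and 6.29 CPM at day 0. Aurkb had a log2 ratio of 1.66 with SE 0.25 and adjusted p = 0.000505, or 1.24 with the GC offset. Knl1, a kinetochore scaffold of low GC content, had 0.642, 0.594 and 0 CPM at day 2, against 7.98, 7.13 and 3.54 CPM at day 0. Knl1 had a log2 ratio of -3.81 with SE 0.85 and adjusted p = 0.00443, a call lost with the GC offset (log2 fold change -1.44, adjusted p = 0.16). Among 16 genes of G1, 5 rose and 7 fell, and with the GC offset 1 rose and 7 fell. Among the D cyclins, Ccnd1 had 158, 179 and 217 CPM at day 2, against 300.2, 282 and 302 CPM at day 0. Ccnd1 had a log2 ratio of -0.67 with SE 0.12 and adjusted p = 0.0012, or -0.89 with the GC offset. Ccnd2 had 208, 262 and 176 CPM at day 2, against 676, 624 and 632 CPM at day 0 (log2 ratio -1.58 with SE 0.14 and adjusted p = 2.71e-05, or -1.14 with the GC offset). Ccnd3 rose, with 331, 323 and 393 CPM at day 2, against 98.6, 100.4 and 105 CPM at day 0 (log2 ratio 1.78 with SE 0.10 and adjusted p = 3.9e-06, or 0.99 with the GC offset).

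The promoter of Mcm5 is shown with the E2F motif, searched as TTTNNCGC on both strands, in capitals (250 bases before the start, RefSeq, GRCm38.p6).
Mcm5, chr8:75109259-75109508, plus strand: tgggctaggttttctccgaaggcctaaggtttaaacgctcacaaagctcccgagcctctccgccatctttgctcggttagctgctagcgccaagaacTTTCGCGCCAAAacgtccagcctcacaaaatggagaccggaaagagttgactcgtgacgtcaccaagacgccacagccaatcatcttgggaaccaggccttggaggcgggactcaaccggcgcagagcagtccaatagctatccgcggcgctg
Its 2 matches, on opposite strands, overlap and begin 153 and 149 bases before the start. The motif was in 5.17% of all promoters and 8.48% of those of tested genes, in 17 of 45 promoters of the replication list and in 1 of 33 of the mitosis list. The cell cycle homology element TTTGAA was in 17.9% of all promoters, in 12.04% of those of tested genes and in 24 of 33 of the mitosis list, which cover 31 of its 37 genes.

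Of the genes of the defence against oxidants more rose than fell. Of 37 tested, 25 rose and 4 fell, and with the GC offset 21 rose and 2 fell. With length added 17 rose and 5 fell, and the median log2 fold change was 0.27, against 0.69 as fitted. Nqo1, a quinone reductase and NRF2 target, had 75.3, 104 and 95.4 CPM at day 2, against 27.6, 26.7 and 27.6 CPM at day 0. Nqo1 had a log2 ratio of 1.75 with SE 0.14 and adjusted p = 2.24e-05, or 2.27 with the GC offset. Sod2, mitochondrial superoxide dismutase, had 70.5, 94.9 and 68.7 CPM at day 2, against 50.3, 44.95 and 49.9 CPM at day 0, a small rise as fitted and a larger one with the GC offset. Sod2 had a log2 ratio of 0.69 with SE 0.15 and adjusted p = 0.00372, or 2.16 with the GC offset. Heat shock proteins and chaperonins showed 12 rises and 16 falls of 42, but 15 and 3 with the GC offset. Hsp90aa1, the inducible HSP90, had 32.6, 58.4 and 79.3 CPM at day 2, against 306, 272 and 164 CPM at day 0. Hsp90aa1 had a log2 ratio of -2.13 with SE 0.33 and adjusted p = 0.000568, or -0.94 with the GC offset. Bag3, a co-chaperone, had 268, 278 and 290.1 CPM at day 2, against 96.6, 89.7 and 103 CPM at day 0. Bag3 had a log2 ratio of 1.53 with SE 0.09 and adjusted p = 5.01e-06, or 0.82 with the GC offset. In the unfolded protein response 9 rose and 7 fell, and with the GC offset 6 rose and 8 fell of 25. Its shares as fitted were 36% and 28%, against 29.3% and 30.3% of all tested genes. Proteasome subunits had 21 rises and 9 falls of 37 (20 and 5 with the GC offset), and 11 and 7 with length added.

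Of 58 lysosomal genes, 24 rose and 16 fell, and with the GC offset 14 rose and 15 fell. Ctsb, cathepsin B, had 1544, 1595 and 1608 CPM at day 2, against 514, 539 and 555 CPM at day 0. Ctsb had a log2 ratio of 1.56 with SE 0.067 and adjusted p = 1.18e-06, or 1.62 with the GC offset. Lamp2, a lysosomal membrane protein, fell by 1.96 in log2 units (adjusted p = 1.48e-06) and was at 0.22 with the GC offset (adjusted p = 0.209), which ended the call. Of 20 genes of zinc handling, 9 rose and 8 fell, and with the GC offset 7 rose and 3 fell. Amino acid carriers had 6 rises and 10 falls of 24 (5 and 7 with the GC offset). The leucine carrier Slc43a2 had 66.0, 59.9 and 55.2 CPM at day 2, against 11.2, 11.8 and 12.5 CPM at day 0. Slc43a2 had a log2 ratio of 2.35 with SE 0.15 and adjusted p = 5.97e-06, or 1.82 with the GC offset. In the tonicity response 7 rose and 5 fell, and with the GC offset 5 rose and 0 fell of 15. Tonicity genes had 4 rises as fitted without day 0 replicate 1 or 3. The water channel Aqp1 had 1058, 1231 and 1291 CPM at day 2, against 266, 277 and 311 CPM at day 0. Aqp1 had a log2 ratio of 2.07 with SE 0.10 and adjusted p = 2.2e-06, or 1.42 with the GC offset. Nfat5, the factor that drives that response, had 322, 250.3 and 251 CPM at day 2, against 713, 624 and 507 CPM at day 0. Nfat5 had a log2 ratio of -1.16 with SE 0.15 and adjusted p = 0.000176, and its fall was not called with the GC offset (log2 fold change 0.19, adjusted p = 0.136) and turned to a rise with length added (0.57, adjusted p = 0.000626).

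Of 18 clock genes, 5 rose and 8 fell, and with the GC offset 4 rose and 6 fell. The clock genes had 5 falls without day 2 replicate 1 or day 0 replicate 3. Per1 is given above as a glucocorticoid target. Per2 rose too, with 29.7, 30.1 and 41.7 CPM at day 2, against 5.29, 6.13 and 6.71 CPM at day 0. Per2 had a log2 ratio of 2.48 with SE 0.22 and adjusted p = 3.22e-05, or 1.87 with the GC offset. Nr1d2, the nuclear receptor REV-ERBβ, had 3.71, 1.63 and 0 CPM at day 2, against 41.4, 44.95 and 30.6 CPM at day 0. Nr1d2 had a log2 ratio of -4.35 with SE 0.68 and adjusted p = 0.000644, or -2.82 with the GC offset. Dbp, an output factor of the clock, had 13.3, 12.1 and 18.7 CPM at day 2, against 40.6, 49.5 and 44.7 CPM at day 0. Dbp had a log2 ratio of -1.62 with SE 0.20 and adjusted p = 0.000161, or -2.50 with the GC offset. Nr1d2 had no count in day 2 replicate 3. The time of day at which cells were taken is not in the labels. Growth factor receptors had 7 rises and 4 falls of 20 (5 and 4 with the GC offset), tubulins 8 and 4 of 19 (4 and 5), axon guidance genes 11 and 14 of 45 (5 and 17), and imprinted growth regulators 5 and 4 of 15 (5 and 4). As fitted, axon guidance genes were at 24.4% and 31.1%, and imprinted regulators at 33.3% and 26.7%. Over all tested genes these shares were 29.3% and 30.3%. The receptors had 4 rises without day 0 replicate 1 or 2. Imprinted regulators had 3 without day 2 replicate 2 or day 0 replicate 1 or 3. Of the imprinted genes, the noncoding RNA H19 had 272, 284 and 237 CPM at day 2, against 34.7, 35.6 and 31.9 CPM at day 0. H19 had a log2 ratio of 2.95 with SE 0.11 and adjusted p = 8.11e-07, or 2.26 with the GC offset. Ndn, necdin, which restrains adipogenesis, had 258, 273 and 273 CPM at day 2, against 72.4, 81.7 and 90.7 CPM at day 0. Ndn had a log2 ratio of 1.72 with SE 0.10 and adjusted p = 5.46e-06, or 2.70 with the GC offset.

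More regulators of transcription and chromatin fell than rose. Of 328 genes with Zfp names, mostly zinc finger repressors, 42 rose and 188 fell, and with the GC offset 10 rose and 86 fell. Their median GC content was 44.7%, against 49.8% over all tested genes, and their median log2 fold change was -1.61 as fitted and -0.61 with the GC offset. Zfp37 had 0, 0.817 and 0 CPM at day 2, against 14.2, 12.8 and 5.81 CPM at day 0 (log2 ratio -5.19 with SE 1.03 and adjusted p = 0.00234, or -3.08 with the GC offset). By contrast Zfp36, an RNA-binding protein that destabilises cytokine mRNAs, had 89.0, 65.4 and 57.0 CPM at day 2, against 20.5, 23.3 and 29.5 CPM at day 0. Zfp36 had a log2 ratio of 1.53 with SE 0.21 and adjusted p = 0.000269, or 0.94 with the GC offset. Of 92 chromatin enzymes and remodellers, 20 rose and 46 fell, and with the GC offset 10 rose and 41 fell (15 and 34 with length added). Smarca1, an ISWI remodeller, had 1.14, 0.371 and 2.11 CPM at day 2, against 30.4, 28.6 and 16.1 CPM at day 0. Smarca1 had a log2 ratio of -4.43 with SE 0.53 and adjusted p = 0.000144, or -2.39 with the GC offset. Smarca5, its relative, had 20.5, 19.5 and 16.0 CPM at day 2, against 159, 136 and 88.0 CPM at day 0. Smarca5 had a log2 ratio of -2.77 with SE 0.23 and adjusted p = 2.13e-05, or -0.97 with the GC offset. In both remodellers day 0 replicate 3 lay closest to day 2. Kdm4b, a histone demethylase, rose, with 159, 154 and 113 CPM at day 2, against 41.7, 41.3 and 46.0 CPM at day 0. Kdm4b had a log2 ratio of 1.72 with SE 0.15 and adjusted p = 2.54e-05, or 0.93 with the GC offset. Among long noncoding RNAs 4 rose and 11 fell, and with the GC offset 7 rose and 4 fell of 21. Malat1, a nuclear RNA, had 36.9, 12.7 and 13.2 CPM at day 2, against 385, 350.0 and 255 CPM at day 0. Malat1 had a log2 ratio of -3.96 with SE 0.40 and adjusted p = 5.89e-05, or -2.54 with the GC offset.

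The genes that took the most counts also changed. Fth1, the ferritin heavy chain, which stores iron, had 21349.7, 21502 and 23192 CPM at day 2, against 3168, 3147 and 3499 CPM at day 0. Fth1 had a log2 ratio of 2.75 with SE 0.072 and adjusted p = 3.08e-07, or 2.204 with the GC offset. Reads of its processed copies cannot be assigned with certainty. An identifier without a symbol in the name table, ENSMUSG00000119584, had 24658, 12815 and 15456 CPM at day 2, against 2917, 2824 and 2484 CPM at day 0. ENSMUSG00000119584 had a log2 ratio of 2.69 with SE 0.22 and adjusted p = 2.2e-05. It has no GC value, so its offset value was not computed from its own sequence. The most counts at day 0 went to mt-Co1, a mitochondrially encoded subunit of complex IV, which had 9194, 9968 and 9554 CPM at day 2, against 11643, 11687 and 10162 CPM at day 0. Its small fall (log2 ratio -0.22 with SE 0.073 and adjusted p = 0.0269) turned to a rise with the GC offset (log2 fold change 1.72, adjusted p = 1.45e-05) and was lost without day 0 replicate 1 or 2 or day 2 replicate 1 or 3.

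At least 10 counts in each day 2 library and none at day 0 were found for 12 genes, among them Retnla, Ear2, Plin1, Cidec, G0s2 and Adipoq. Ear2, an eosinophil-type ribonuclease with near-identical copies, was at least 717-fold higher (adjusted p = 5.36e-06). No count at day 2 and at least 10 in each day 0 library were found for 121 genes, whose median GC content was 43.9%, against 49.8% for all tested genes. Among the 12 largest rises, Fam107a, an actin-associated protein induced by stress hormones, had 121, 121 and 125 CPM at day 2, against 0.97, 0.951 and 0.12 CPM at day 0. Fam107a had a log2 ratio of 7.41 with SE 0.36 and adjusted p = 2.12e-06, or 7.40 with the GC offset. Ppp1r1b, the phosphatase inhibitor DARPP-32, had 17.8, 16.2 and 9.79 CPM at day 2, against 0, 0 and 0.18 CPM at day 0 (adjusted p = 7.24e-05). From 556 counts over the day 2 libraries and 3 over those of day 0, day 2 was higher by 296-fold (95% exact interval 101 to 1441, counting error only).

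Markers of blood, endothelial, epithelial and muscle cells were low at both days, while Sox9 and Runx2 of the bone and cartilage list were not. Summed over the list, markers of macrophages and blood were at 11.4 to 15.5 CPM at day 2 and 10.4 to 13.2 CPM at day 0. Of 11 such markers 4 had no count in any library and Ptprc and Itgam had none at day 2. Cd14 rose by 1.11 in log2 units (adjusted p = 0.0218, lost with the GC offset at 0.69, adjusted p = 0.136, and without day 0 replicate 1 or 2 or day 2 replicate 1). Endothelial markers summed to 2.56 to 3.71 CPM at day 2 and 2.56 to 5.12 CPM at day 0, with Tie1 and Cldn5 at 0 throughout. Those of epithelium summed to 2.11 to 3.19 CPM at day 2 and 0.719 to 0.951 CPM at day 0, with Epcam, Krt18 and Krt5 at 0 throughout. Muscle markers summed to 5.23 to 9.34 CPM at day 2 and 6.61 to 12.2 CPM at day 0, with Myod1, Myog and Myf5 at 0. Of the markers of brown and beige fat, 5 of 10 had no count, Ucp1 among them. The 2 tested were Dio2, which rose, and Ppargc1a, which was called lower as fitted but not with the GC offset. The mesenchymal receptor Pdgfra had 595, 554 and 494 CPM at day 2, against 476, 459.9 and 473 CPM at day 0, a rise of 0.22 on the log2 scale that passed narrowly (adjusted p = 0.0483, and 0.48, adjusted p = 0.00156 with the GC offset) and as fitted was lost without any single library other than day 2 replicate 3. Markers of bone and cartilage summed to 194 to 288 CPM at day 2 and 248 to 263 CPM at day 0, mostly from Sox9 and Runx2. Of 10 such markers 2 had no count in any library, and of 4 tested 1 rose and 1 fell in both fits. The member that fell, the osteoblast factor Runx2, had 39.0, 27.9 and 20.6 CPM at day 2, against 79.9, 81.0 and 81.6 CPM at day 0. Runx2 had a log2 ratio of -1.46 with SE 0.21 and adjusted p = 0.000373, or -1.58 with the GC offset. Sox9, the cartilage factor, had 149, 252 and 253 CPM at day 2, against 167, 166 and 179 CPM at day 0 and did not pass (log2 fold change 0.35, adjusted p = 0.131, and 0.40, adjusted p = 0.104 with the GC offset), although it did without day 2 replicate 1.

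The same day change was measured in the FHL2-GFP line, and an interaction term over all 12 libraries asked where the control line differed. Of 14435 genes 1 (0.00693%) was called, and 996 had an unadjusted p under 0.05. Called was Tnc (ENSMUSG00000028364), which encodes tenascin C, a matrix glycoprotein of growing tissue. Scaled over 12 libraries, Tnc had 375, 408 and 292 CPM at day 2 and 359.9, 341 and 361 CPM at day 0 in the control line, and 206, 186 and 162 CPM at day 2 and 417, 471 and 457 CPM at day 0 in the FHL2 line. The control libraries of both days overlapped, while every FHL2 library of day 2 lay under those of day 0. The log2 day change was 1.30 higher in control (SE 0.17, adjusted p = 0.0276). In the fit of the control libraries alone Tnc did not change by the test (log2 fold change 0.076, SE 0.12, adjusted p = 0.599), though it was called lower with the GC offset (-0.36, adjusted p = 0.0253). Ifit3 followed, with an adjusted p of 0.0635 for the difference between lines, and did not pass, nor did Ren1 at 0.0732. A change that was not called as different is not shown to be the same in both lines.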

How the data were processed

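Polyadenylated RNA of 3T3-L1 cells, taken with TRI Reagent, was sequenced from stranded TruSeq libraries, per the labels' protocols. The authors deposited raw counts per gene, whole numbers for 55414 Ensembl IDs, of which 52081 matched a symbol. The submitters' processing notes name HISAT2 2.2.1 and HTSeq 0.11.0 beside Trimmomatic 0.39, FastQC 0.11.9, limma, R 4.1.0 and the build GRCm39. Order, settings, annotation and the strand option of counting are not stated there.

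From the counts, edgeR 4.0.16 (R 4.3.3) fitted the 6 control libraries by quasi-likelihood, with filterByExpr by group, TMM scaling and Benjamini-Hochberg adjustment over all tested genes, and a call at an adjusted p of 0.05. Fold changes are day 2 over day 0, and a value against no count uses a floor of 3 counts over the group. The GC offset is a loess curve (span 0.4) per library of each gene's deviation on its GC content, from GENCODE M21 transcripts on GRCm38, known for 13504 genes. Tested genes without a value were set to the median GC content in that fit. Promoters are RefSeq's on GRCm38.p6. DESeq2 1.42.0, limma 3.58.1, other scalings and filters, and leaving out each library were alternatives, and the fits were tested on simulated data. Lists and members were chosen with earlier results of these data known. Named were the 12 largest rises and falls with a mean of at least 5 CPM, no overlap and the same call with the GC offset, up to 4 strongest called members of each list and its most counted member, the 10 most counted genes of each group, and some adipogenic genes. Some genes that this rule picks are not reported here. Named outside that rule, after their values were seen, were Ankrd1, Anpep, Aurkb, Bag3, Bmp5, Ccnd1, Col4a1, Cpt2, Dbp, Dcn, Dusp1, G0s2, Glul, Ifi27, Igf1, Irf7, Irs1, Isg15, Itga5, Itgam, Kdm4b, Klf4, Klf9, Knl1, Lpl, Pde4d, Pdgfra, Ptprc, Rrm2, Sfrp2, Sgk1, Slc2a1, Sod2, Sqle, Srebf1, Tnc, Tsc22d3, Vdr and Zfp36.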

Additional observations from a re-analysis of the deposited data

Results flagged for a closer look

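The day change of Tnc differed between the lines by a test of the difference itself, an interaction term in edgeR over 12 libraries, by 1.30 on the log2 scale, control minus FHL2 (adjusted p = 0.0276). Its values were 375, 408 and 292 CPM at day 2 and 359.9, 341 and 361 CPM at day 0 in the control line, and 206, 186 and 162 CPM at day 2 and 417, 471 and 457 CPM at day 0 in the FHL2 line.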

How the results depend on the processing

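The largest dependence was on GC content. The 4092 genes called lower became 2585 with the GC offset, 2543 with GC content and length in the offset, and 2237 with the GC offset and a replicate block. The 3964 called higher became 2946, 2716 and 2526 under the same settings, and the 4929 called with at least a 2-fold change became 2487, 2295 and 2129. The offset by construction sets the typical gene of each GC level to no change. Scaling, filter, DESeq2, limma-voom, all 12 libraries in 1 fit and thinning kept the counts within 3680 to 4081 higher, 3949 to 4620 lower and 4806 to 5357 with a 2-fold change. Leaving out 1 library gave 3234 to 4542 higher, 3275 to 4854 lower, 4093 to 5608 with a 2-fold change, and a rho with GC content of 0.612 to 0.640. Over genes averaging at least 5 CPM that rho was 0.705. With the GC offset 4 genes differed in day change between the lines, against 1 as fitted. Of 159 tested genes named, with Acsl3 left out of this tally, 156 were called as fitted and 138 kept their direction and call in every setting run. The sign turned with GC content, with the log2 fold change under the GC offset, the GC and length offset, and the replicate block with GC offset at 1.38, 1.04 and 1.39 for B2m, 0.19, 0.062 and 0.19 for Dcn, 1.32, 1.54 and 1.32 for Igf1, 0.22, 0.23 and 0.22 for Lamp2, 0.19, 0.57 and 0.19 for Nfat5. In the same order it was at 1.72, 1.55 and 1.72 for mt-Co1, 1.16, 0.91 and 1.16 for mt-Cytb, -0.42, -0.33 and -0.43 for Dlk1 and -0.36, -0.14 and -0.37 for Tnc. Tnc was also at -0.036 without day 2 replicate 2. The replicate numbers were not used as pairs: same-numbered libraries deviated together with r = 0.089, 0.034 and 0.097 across genes, though each correlated best with its own number, and the replicate block alone gave 3650 higher, 3936 lower and 4684 with a 2-fold change. Why calls moved between settings was not tested. Depth limits the genes with few counts at day 2, where the smallest library held 10047708 counts.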
